A study of Homo sapiens with 6 samples.

Results

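LMO1, LMO2, LMO3 and LMO4 are the LIM-only factors, and LDB1 and LDB2 are the LIM domain binding proteins that hold them in complexes. These 6 genes were taken by their symbols. The family was selected on the normalized read counts of LMO1, which were strongly lower in the cells with extra VIM-AS1, so the difference of LMO1 between the groups is given as a description with no test. Of the 6 genes, 5 had a row among the 25969 genes listed, and 3 of the 5, LMO1, LMO4 and LDB1, reached the mean normalized read count of 1 that put 20927 genes into the tests. LDB2 was not listed and was not analysed here.

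LMO proteins consist almost wholly of a pair of LIM domains, zinc-binding folds that bind other proteins and not DNA. LDB1 binds such LIM domains and pairs with itself, so that it ties LMO proteins and LIM homeodomain factors to DNA-binding partners, among them GATA factors and basic helix-loop-helix proteins such as TAL1 and TCF3. LMO1 and LMO2 are known as oncogenes of T-cell leukaemia, LMO1 also of neuroblastoma, and LMO4 is the member usually found in epithelial cells.

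The libraries were made from cells labelled LNCaP, a human prostate cancer line known for its response to androgen. In 3 libraries the cells had received a vector for overexpression of VIM-AS1, the noncoding RNA transcribed from the opposite strand at the vimentin gene, and in 3 they carried pcDNA3.1, the vector used as the control. The series asks what raised VIM-AS1 does to gene expression. The labels name no allele, drug or time after transfection, and they leave unsaid if replicates are separate cultures. The p-values therefore rest on a spread between libraries that may be technical.

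Each library held 14762893 to 19889745 reads counted to genes. VIM-AS1 itself had normalized read counts of 2197, 2019 and 2763 in the VIM-AS1 libraries, against 8.63, 1.22 and 5.53 in the control libraries. Markers of LNCaP cells went partly against the label. KLK3, the gene of prostate-specific antigen, had 0 reads in every VIM-AS1 library and at most 1.92 normalized reads in a control library, and KLK2, TMPRSS2 and STEAP2 were not listed, while HOXB13 lay between 401.2 and 807.3. In both groups the third library differed from its fellows, at a chi-square over its degrees of freedom of 45.5 and 69.2 in the VIM-AS1 group and of 65.4 and 62.2 in the control group. The first and second libraries differed by 7.14 on that measure in the VIM-AS1 group and by 41.4 in the control group, so that every pair of replicates differed by more than sampling noise. Reads of genes with symbols starting in MT-, the mitochondrial genes, were 5.57% to 7.06% of all reads in VIM-AS1 libraries and 8.73% to 14.3% in control libraries. The summed level of 6 fibroblast markers ran from 1780 to 2548 in VIM-AS1 libraries and from 2875 to 3714 in control libraries, with COL1A2 and LUM at or near 0 in all 6, and COL1A1, DCN and PDGFRB among 4 tested markers lower by the fit with a term for the third libraries (COL1A1 and PDGFRB lost that call without VIM-AS1 replicate 3 or control replicate 3). The fit with the term called 7.94% of all tested genes lower, and the fit without it called 0 of these 4 markers. Both the mitochondrial share and the fibroblast sum separated the groups as LMO1 did, and their part in the results was not tested. Leukocyte markers PTPRC, CD3E and LYZ and the neural markers ELAVL4, STMN2 and GAP43 were not listed. Of the endothelial markers, KDR was not listed, PECAM1 was at 0 in 5 of the 6 libraries and CDH5 averaged 12.6 in both groups. VWF, also endothelial, averaged 75.7 ± 21.9 in VIM-AS1 cells and 35.5 ± 13.4 in control cells (SD, n = 3 each), with groups that did not overlap. It rose with the third-library term (1.1 ± 0.25, limma, adjusted p = 0.00436) and did not pass in limma without it (adjusted p = 0.24). The fit with the term called 11.5% of all tested genes higher, and groups did not overlap for 19.8%. The call was lost without VIM-AS1 replicate 3 or control replicate 3. The part of VWF in the results was not tested either.

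The 250 bases before the RefSeq start of LMO1, LMO4 and LDB1 are shown because these are the members with reads, and because LMO1, the member that was lower, has a start region unlike the other 2. They are RefSeq sequences of GRCh38.p14, written 5′ to 3′ on the strand of the gene, with each CG dinucleotide in capitals. The LMO1 stretch is chr11:8268788-8269037 on the minus strand, the LMO4 stretch is chr1:87328630-87328879 on the plus strand, from the first of 2 RefSeq entries, and the LDB1 stretch is chr10:102115003-102115252 on the minus strand. The LMO4 and LDB1 stretches lie inside those genes as GENCODE 29 annotates them, downstream of its outermost start, and the LMO1 stretch lies outside.
LMO1: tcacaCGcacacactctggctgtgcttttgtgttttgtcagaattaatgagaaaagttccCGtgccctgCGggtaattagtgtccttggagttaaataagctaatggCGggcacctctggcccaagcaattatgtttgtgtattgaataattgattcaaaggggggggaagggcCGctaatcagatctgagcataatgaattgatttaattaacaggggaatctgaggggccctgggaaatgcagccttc
LMO4: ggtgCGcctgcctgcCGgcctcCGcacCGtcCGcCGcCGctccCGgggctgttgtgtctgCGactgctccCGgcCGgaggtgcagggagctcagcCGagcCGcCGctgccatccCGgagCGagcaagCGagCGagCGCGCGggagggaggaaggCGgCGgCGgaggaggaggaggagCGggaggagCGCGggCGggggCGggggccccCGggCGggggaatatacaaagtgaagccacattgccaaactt
LDB1: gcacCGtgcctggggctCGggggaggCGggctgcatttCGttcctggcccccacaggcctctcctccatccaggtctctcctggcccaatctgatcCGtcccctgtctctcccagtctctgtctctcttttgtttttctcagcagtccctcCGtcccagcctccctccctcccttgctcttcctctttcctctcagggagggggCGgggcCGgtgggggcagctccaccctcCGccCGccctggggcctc
The LMO1 stretch holds 5 CG dinucleotides at a GC content of 45.6%, the LMO4 stretch 31 at 74.4% and the LDB1 stretch 10 at 67.2%. Over 35116 RefSeq promoter stretches of the same length, the median was 11 CG dinucleotides and 58% GC, 38.1% held no more CG dinucleotides than LMO1 and 23.2% had a lower GC content. The letters TAAT or their reverse complement ATTA, the core bound by many homeodomain proteins, occur 11 times in the LMO1 stretch, overlapping matches counted, and not in the LMO4 or LDB1 stretch. At least 1 such match is found in 47.4% of all stretches, and 11 or more in 0.165%, but these letters were chosen after the sequence had been read. CANNTG, the E-box of basic helix-loop-helix proteins, and GATA or TATC, searched on both strands, occur in none of the 3 stretches, while 61.8% of all stretches hold CANNTG and 45.6% hold GATA or TATC. These matches describe the letters only.

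LMO1 (ENSG00000166407, chr11:8224304-8268716, minus strand, protein coding) was the LMO gene that differed most between the groups. Its normalized read count was 140.1, 150.9 and 132.0 in the VIM-AS1 libraries, against 521.8, 492.3 and 288.3 in the control libraries. Every VIM-AS1 library lay below every control library, and the VIM-AS1 libraries lay close together while control replicate 3 lay well below the other control libraries. Groups did not overlap for 19.8% of all tested genes. The reads behind these values numbered 133, 154 and 129 in the VIM-AS1 libraries and 544, 403 and 365 in the control libraries. LMO1 averaged 141.0 ± 9.47 in VIM-AS1 cells and 434.2 ± 127.2 in control cells (SD, n = 3 each), or 32.5% of the control mean. On the log2(normalized read count + 1) scale the difference was -1.57 with a standard error of 0.27, or of 0.15 when the fit held a term for the third libraries, and 546 of the 20927 tested genes had a lower value, most of them with a mean under 100. LMO1 was chosen by this difference, so the standard errors describe spread and cannot serve as a test. When only the 9758 genes whose mean reached 100 were ranked, LMO1 had the 10th lowest difference.

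The third libraries narrowed the gap. Set by replicate number, the log2 difference was -1.89 for the first libraries, -1.70 for the second and -1.12 for the third. Within the VIM-AS1 group the third library was 0.14 log2 units below the mean of the other libraries, and within the control group it was 0.81 below. Over the first and second libraries alone the difference was -1.79, and with each library left out in turn it ran from -1.84 to -1.41. In bulk libraries, fewer cells that express LMO1 and less LMO1 RNA per cell cannot be told apart. No other annotated gene overlaps LMO1.

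**Figure D1:**
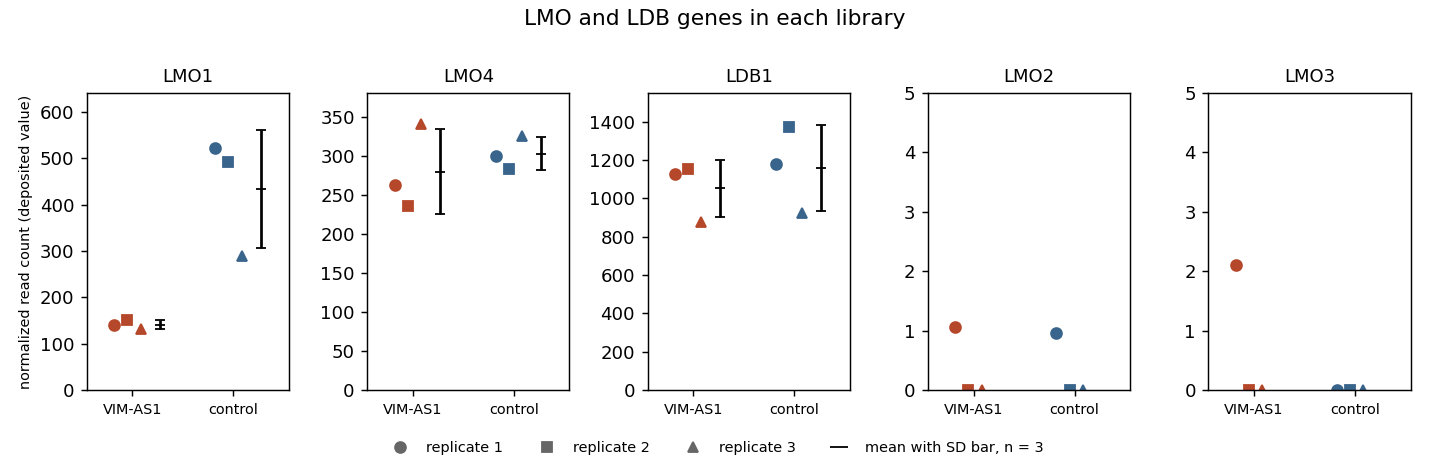
Normalized read count (the deposited value, y axis, a separate scale in each panel) of the 5 listed members in the 3 VIM-AS1 libraries (left, red) and the 3 control libraries (right, blue); symbols mark replicates 1 to 3, and the black bars give the mean and SD (n = 3), left out for LMO2 and LMO3. LMO1 sits between 132.0 and 150.9 in VIM-AS1 libraries and between 288.3 and 521.8 in control libraries, while LMO4 and LDB1 overlap between the groups and LMO2 and LMO3 stay near 0.

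LMO4 (ENSG00000143013, chr1:87328468-87348923, plus strand), the LMO factor of epithelial cells that also binds the transcription factor DEAF1 and the repair proteins RBBP8 and BRCA1, did not differ beyond the spread between libraries. It had 263.4, 236.1 and 340.8 normalized reads in the VIM-AS1 libraries, against 300.2, 283.4 and 325.4 in the control libraries. The groups overlapped, since VIM-AS1 replicate 3 was the highest of all 6 libraries and the other VIM-AS1 libraries were the lowest. LMO4 averaged 280.1 ± 54.3 in VIM-AS1 cells and 303.0 ± 21.1 in control cells (SD, n = 3 each). The log2 difference was -0.13 ± 0.23 (standard error) in limma without a term, with an adjusted p of 0.86 and a 95% interval from -0.63 to 0.37. With the third-library term the interval was -0.40 to 0.15 (limma, adjusted p = 0.56), so the fit leaves room for a decrease of up to 0.40 log2 units.

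LDB1 (ENSG00000198728, chr10:102107560-102120453, minus strand), the binding partner common to these complexes, was the member with the most reads. Its normalized read count was 1125, 1151 and 878.0 in the VIM-AS1 libraries, against 1177, 1373 and 925.7 in the control libraries. In each group the third library was the lowest, and the groups overlapped. LDB1 averaged 1052 ± 150.8 in VIM-AS1 cells and 1159 ± 224.3 in control cells (SD, n = 3 each). Its log2 difference was -0.13 ± 0.22 in limma without a term, with an adjusted p of 0.85 and a 95% interval from -0.63 to 0.36, and with the term the interval was -0.35 to 0.09 (limma, adjusted p = 0.43).

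Neither LMO4 nor LDB1 passed the threshold of 0.05 in any fit, where the fit with the term called 19.4% of all tested genes, the fit without it 0.0239% (0.0143% higher and 0.00956% lower) and the fit with a block for the replicate number 26.6%. Their count at an unadjusted p under 0.05 was also 0 in limma with and without the term, in limma with the block, in edgeR with and without the term, and in DESeq2. An adjusted p above the threshold does not show that LMO4 and LDB1 were alike in both groups, and the intervals above give the sizes that these libraries allow.

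LMO2 and LMO3 were barely detected. LMO2 (ENSG00000135363, chr11:33858576-33892289, minus strand), best known from blood stem cells and leukaemia, had 1, 0 and 0 reads in the VIM-AS1 libraries and 1, 0 and 0 in the control libraries. LMO3 (ENSG00000048540, chr12:16548373-16610594, minus strand), mainly a gene of the nervous system, had 2, 0 and 0 reads in the VIM-AS1 libraries and 0, 0 and 0 in the control libraries. Both lay under the floor of 3 reads that a count of 0 allows, which is 2.37 to 3.67 normalized reads depending on the library and covers counting error only, so no fold is given. LMO2 also overlaps an antisense gene that was not listed. MGST1, which overlaps LMO3 on the other strand, had 703.5 ± 44.9 normalized reads in VIM-AS1 cells and 663.3 ± 29.6 in control cells (SD, n = 3 each). Whether the counting used strand was not given in the sources used here, so LMO3 reads cannot be told apart from MGST1 reads where their exons meet.

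Per kilobase of exon, LDB1 stood above both LMO genes with reads. Its level was 376.9 normalized reads per kb in VIM-AS1 cells and 415.3 in control cells. LMO1 followed with 83.4 per kb in VIM-AS1 cells and 256.9 in control cells. LMO4 came next with 48.0 per kb in VIM-AS1 cells and 52.0 in control cells. In neither group did neighbours in this order overlap over the libraries. In VIM-AS1 libraries LMO1 ran from 78.1 to 89.3 per kb and LMO4 from 40.5 to 58.4. In control libraries the lowest LDB1 value, 331.8 per kb, lay just above the highest LMO1 value, 308.8.

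The ratio of LMO1 to LMO4 per kb was 1.84, 2.21 and 1.34 in the VIM-AS1 libraries, against 6.0, 6.0 and 3.06 in the control libraries. The groups did not overlap in this ratio, which carries the LMO1 difference that chose the family and is therefore a description. The share of LMO1 in the summed level of LMO1 to LMO4 was 64.5%, 68.8% and 57.2% in the VIM-AS1 libraries and 85.6%, 85.7% and 75.4% in the control libraries. LMO1 remained the more abundant LMO transcript per kb in all 6 libraries. This order rests on the annotated exon lengths, 1690 bp for LMO1 and 5833 bp for LMO4. Before division by length, LMO4 had more normalized reads than LMO1 in every VIM-AS1 library and in control replicate 3. The ratio of LDB1 to LMO1 was 4.50 ± 0.43 in VIM-AS1 cells and 1.67 ± 0.29 in control cells, while that of LDB1 to LMO4 was 8.17 ± 2.49 in VIM-AS1 cells and 8.09 ± 2.09 in control cells (SD, n = 3 each). The last ratio overlapped between the groups and was lowest in the third library of each.

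**Figure D2:**
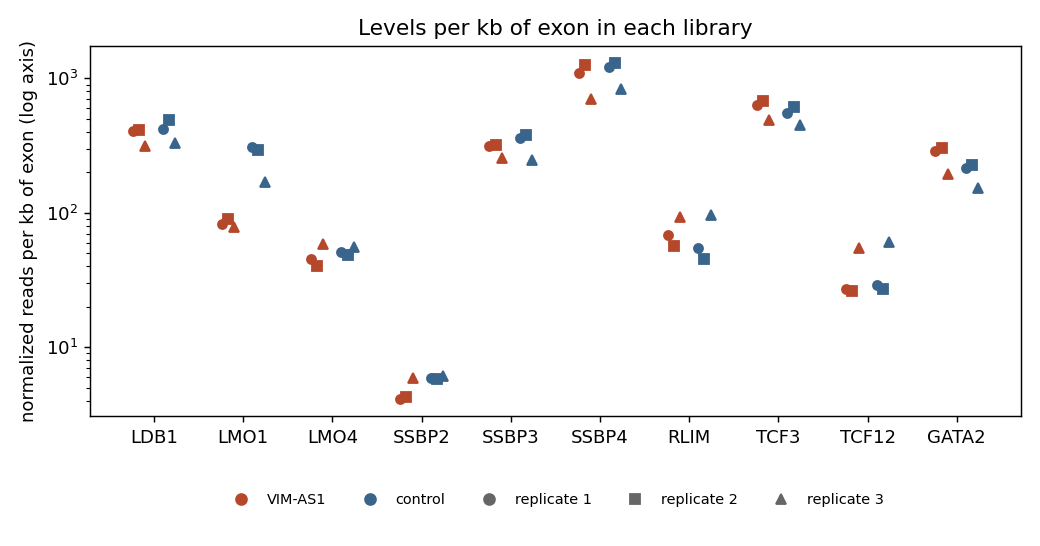
Level per kb of exon (normalized reads per kb, log axis) of LDB1, LMO1, LMO4 and 7 genes of their complexes in the 3 VIM-AS1 libraries (red, left) and the 3 control libraries (blue, right), with symbols for replicates 1 to 3. LMO1 lies at 78.1 to 89.3 in VIM-AS1 libraries and at 170.6 to 308.8 in control libraries, and the triangles of the third libraries lie apart from the others for most of the genes shown.

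Few of the genes whose proteins meet LMO and LDB proteins in complexes were called. Of 19 such genes, 16 were listed and 14 tested, and their median log2 difference was -0.06, against -0.02 over all tested genes. Without a term, limma called 0 of the 14, with 0 at an unadjusted p under 0.05, and edgeR and DESeq2 also called 0. With the third-library term 1 of the 14 rose and 0 fell, where that fit called 11.5% of all tested genes higher and 7.94% lower, and with the replicate block 2 rose and 0 fell, against 15.8% and 10.8%. The list thus held no larger a share of calls than the table as a whole.

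GATA2, a zinc finger factor that can join LMO complexes, was the gene that rose. It had 1293, 1362 and 874.9 normalized reads in the VIM-AS1 libraries, against 962.1, 1006 and 677.7 in the control libraries. The groups overlapped because the third libraries were the lowest in both, yet each VIM-AS1 library lay above the control library of the same number. Its log2 difference was 0.41 ± 0.10 (limma with the term, adjusted p = 0.00700), against an adjusted p of 0.51 without the term. The call was lost without VIM-AS1 replicate 2, VIM-AS1 replicate 3 or control replicate 3.

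Among the SSBP proteins, which bind LDB1 and guard it from breakdown, SSBP4 averaged 3032 ± 847.8 in VIM-AS1 cells and 3329 ± 730.6 in control cells (SD, n = 3 each). SSBP3 averaged 1548 ± 181.8 in VIM-AS1 cells and 1725 ± 378.9 in control cells. SSBP2 averaged 53.6 ± 11.2 in VIM-AS1 cells and 67.5 ± 1.80 in control cells. None of these 3 passed in limma with the term, with log2 differences of -0.15 for SSBP4, -0.14 for SSBP3 and -0.35 for SSBP2. RLIM, the ubiquitin ligase that targets LDB1 and LMO proteins, averaged 608.4 ± 154.4 in VIM-AS1 cells and 546.7 ± 226.5 in control cells and did not pass (0.20 ± 0.13). TCF3 and TCF12, E-proteins that pair with TAL1 or LYL1, had log2 differences of 0.16 ± 0.10 and -0.10 ± 0.12 and did not pass. Of the tissue-restricted partners of E-proteins, TAL1, TAL2 and NHLH2 were not listed and LYL1 had at most 1.58 normalized reads in a library. NHLH1 averaged 14.7 ± 7.44 in VIM-AS1 cells and 24.5 ± 4.11 in control cells and did not pass (-0.79 ± 0.39). TCF4, another E-protein gene, averaged 15.3 ± 7.18 in VIM-AS1 cells and 26.2 ± 11.1 in control cells and did not pass (-0.75 ± 0.37). GATA3, a relative of GATA2, had 4.21, 7.84 and 8.19 normalized reads in the VIM-AS1 libraries, against 3.84, 0 and 3.16 in the control libraries. Its groups did not overlap, as for 19.8% of all tested genes. At these few reads its log2 difference of 1.47 had a standard error of 0.68 and did not pass. These wide errors leave room for sizeable differences in the genes with few reads. DEAF1, a partner of LMO4, averaged 2278 ± 683.7 in VIM-AS1 cells and 1937 ± 481.0 in control cells, with a log2 difference of 0.22 and an adjusted p of 0.22 in limma with the term and of 0.034 with the block. RBBP8 and BRCA1, also LMO4 partners, had log2 differences of -0.21 ± 0.16 and -0.02 ± 0.16 and did not pass.

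The LIM homeodomain factors, which carry the same kind of LIM domains beside a DNA-binding domain and bind LDB1 in competition with LMO proteins, had group means of at most 184.2 normalized reads. Of 12 genes, 10 were listed and tested, 3 with a positive and 7 with a negative log2 difference and a median of -0.21. Over all tested genes 10051 were positive and 10876 negative, with a median of -0.02. With the third-library term limma called 0 of the 10, with 2 at an unadjusted p under 0.05. Limma with the block and edgeR with the term each called 1. Of all tested genes limma called 19.4% with the term and 26.6% with the block. EdgeR with the term called 2391 of them higher and 1808 lower. LHX2, the most abundant of them, had 124.3, 151.9 and 128.9 normalized reads in the VIM-AS1 libraries, against 201.4, 168.6 and 182.5 in the control libraries. The VIM-AS1 libraries all lay below the control libraries, and the groups likewise did not overlap for 19.8% of all tested genes. Its log2 difference was -0.45 ± 0.16, with an adjusted p of 0.058 in limma with the term. It passed in limma with the replicate block (adjusted p = 0.0231) and in edgeR with the term (adjusted p = 0.0452). LHX4 averaged 119.0 ± 9.44 in VIM-AS1 cells and 146.5 ± 16.1 in control cells and ISL2 averaged 65.0 ± 12.6 in VIM-AS1 cells and 92.9 ± 25.3 in control cells (SD, n = 3 each), and neither passed.

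Small LIM-domain proteins outside the LMO family moved in both directions. Of 11 such genes, 8 were tested, and with the third-library term 3 rose, 1 fell and 4 did not pass, where 11.5% of all tested genes rose and 7.94% fell, with the same counts under the block and 0 calls without a term, where 1 gene had an unadjusted p under 0.05 and DESeq2 called 1. CSRP1, a LIM protein of the actin cytoskeleton, had 12481, 13180 and 8241 normalized reads in the VIM-AS1 libraries, against 4604, 5377 and 2906 in the control libraries. Every VIM-AS1 library was above every control library, where groups did not overlap for 19.8% of all tested genes. The third library was the lowest of each group for CSRP1. The log2 difference of 1.41 ± 0.11 passed in limma with the term (adjusted p = 1.46e-07) and with each library left out in that fit, and not without the term (adjusted p = 0.087). FHL1 and FHL2, LIM proteins that act as scaffolds in muscle and as nuclear cofactors, rose by less. FHL1 averaged 1015 ± 18.7 in VIM-AS1 cells and 810.5 ± 73.1 in control cells (0.33 ± 0.11, limma with the term, adjusted p = 0.0353), and FHL2 averaged 3076 ± 140.8 in VIM-AS1 cells and 2459 ± 145.6 in control cells (0.32 ± 0.10, adjusted p = 0.0294). CRIP2, a cysteine-rich LIM protein, fell, averaging 4849 ± 1275 in VIM-AS1 cells and 6349 ± 1743 in control cells (-0.39 ± 0.11, limma with the term, adjusted p = 0.0205). These 3 calls are frail: FHL1 kept its call in 1 of the 6 fits that leave out a library, FHL2 and CRIP2 in 2 of 6 each, all 3 losing it without VIM-AS1 replicate 1, VIM-AS1 replicate 3 or control replicate 3, and FHL1 also lost it with library size scaling (adjusted p = 0.0872). The fits without VIM-AS1 replicate 3 and without control replicate 3 both compare only the first and second libraries. FHL3, CSRP2, CRIP1 and TGFB1I1 did not pass, with log2 differences from -0.17 to 0.05.

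**Figure D3:**
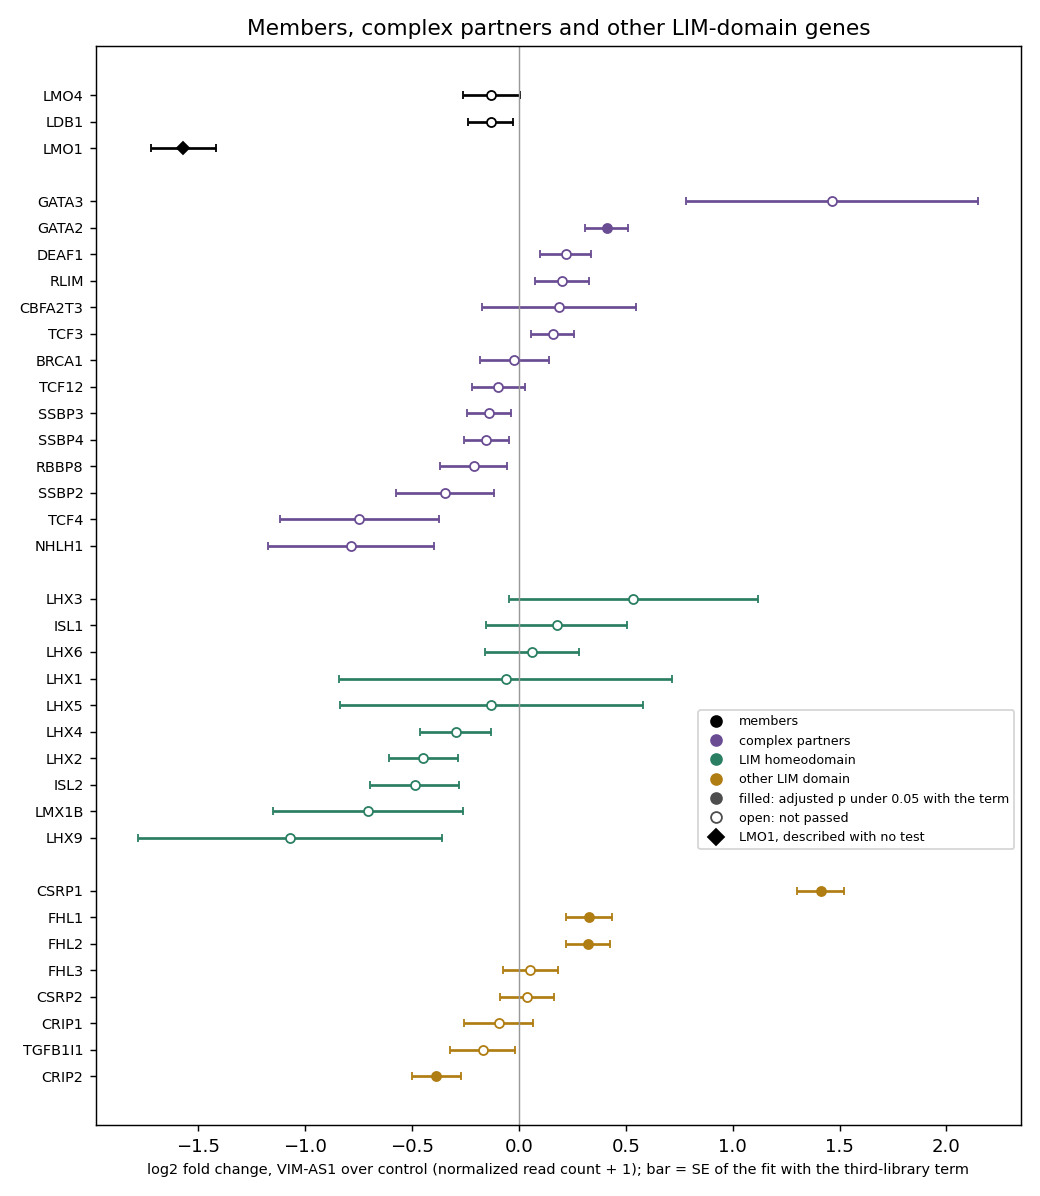
Log2 fold change of VIM-AS1 over control (x axis, on normalized read count + 1) for 3 members, their complex partners, LIM homeodomain factors and other LIM-domain genes; bars are standard errors from the limma fit with the third-library term, filled points passed an adjusted p of 0.05 in it, and the diamond marks LMO1, which has no test. LMO1 lies at -1.57, LMO4 and LDB1 both at -0.13, GATA2 at 0.41 and CSRP1 at 1.41.

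In neuroblastoma LMO1 belongs to a circuit of transcription factors that includes MYCN, HAND2, ISL1, GATA3 and TBX2, and little of that circuit was expressed in the cells labelled LNCaP. Of these genes, 4 were tested, and HAND2 was not listed. TBX2, a T-box factor, rose with the third-library term, with 60.1, 51.9 and 46.0 normalized reads in the VIM-AS1 libraries, against 26.9, 39.1 and 19.0 in the control libraries. Its groups did not overlap, and its log2 difference was 0.92 ± 0.29 (limma with the term, adjusted p = 0.0278, and 0.29 without it). Of all tested genes, 11.5% rose with the term, and groups did not overlap for 19.8%. So few circuit genes cannot be set apart from those shares. TBX2 kept its call only without control replicate 2 among the 6 fits that leave out a library, and lost it with library size scaling (adjusted p = 0.0643). MYCN, ISL1 and GATA3 did not pass, with means of 4.30, 27.7 and 6.75 in VIM-AS1 cells and 3.12, 24.3 and 2.33 in control cells.

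No tested gene around LMO1 was called lower. Within 500 kb lie 31 annotated genes, of which 10 were listed and 8 tested, with a median log2 difference of 0.08. Of the 8, 1 rose and 0 fell with the third-library term, where 11.5% of all tested genes rose and 7.94% fell. Without the term 0 were called. So few genes cannot be set apart from those shares. DENND2B, 424.6 kb away, rose, with 594.2, 653.5 and 433.9 normalized reads in the VIM-AS1 libraries, against 380.8, 525.3 and 297.8 in the control libraries (0.50 ± 0.13, limma with the term, adjusted p = 0.00956, lost without VIM-AS1 replicate 2, VIM-AS1 replicate 3 or control replicate 3). Its direction was opposite to that of LMO1. RIC3, the nearest listed gene at 55.2 kb, had at most 3 reads in a library. TUB, at 118.2 kb, averaged 24.4 ± 7.43 in VIM-AS1 cells and 35.7 ± 2.77 in control cells (SD, n = 3 each). TUB did not pass (limma with the term, adjusted p = 0.23). Every VIM-AS1 library lay below every control library for TUB, in the direction of LMO1. Groups likewise did not overlap for 19.8% of all tested genes. EIF3F and RPL27A, both highly expressed, had log2 differences of 0.09 and -0.02 and did not pass.

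**Figure D4:**
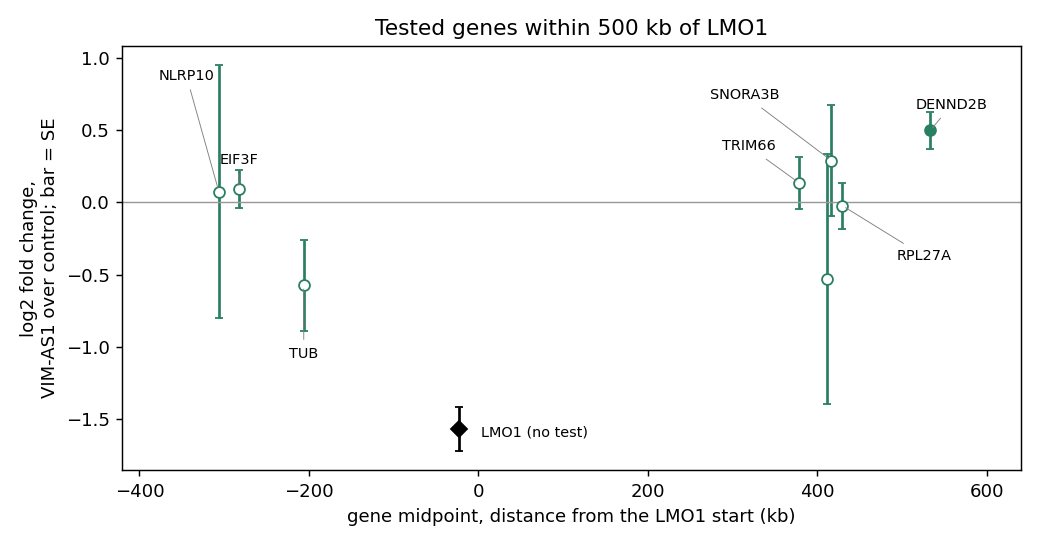
Log2 fold change of VIM-AS1 over control (y axis, bars are standard errors from the fit with the third-library term) of LMO1 and the 8 tested genes within 500 kb, by the distance of each gene's midpoint from the LMO1 start in kb (x axis). LMO1 (diamond) lies at -1.57 and the filled point, DENND2B, at 0.50; the open points did not pass, and the 1 unlabelled point has an identifier and no symbol.

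Around LDB1, 23 genes within 500 kb were tested, and with the third-library term 3 rose (NOLC1, HPS6 and FBXW4) and 2 fell (FBXL15 and C10orf95-AS1), a share near the 19.4% called over all genes. With a library left out HPS6 kept its call in 4 of 6 fits, FBXW4 in 3, FBXL15 in 2 and C10orf95-AS1 in 1, all 4 losing it without VIM-AS1 replicate 3 or control replicate 3, and C10orf95-AS1 also lost it with library size scaling (limma, adjusted p = 0.0544). NOLC1, a nucleolar phosphoprotein gene 31.7 kb from LDB1, had 4018 ± 292.5 normalized reads in VIM-AS1 cells and 2596 ± 202.0 in control cells (SD, n = 3 each). Its log2 difference was 0.63 ± 0.10 (limma with the term, adjusted p = 0.000175, lost without VIM-AS1 replicate 3). NOLC1 did not pass in limma without the term (adjusted p = 0.21). PPRC1, the nearest listed gene at 12.5 kb, had 0.27 ± 0.11 and did not pass with the term (adjusted p = 0.089), though it did with the block (adjusted p = 0.0109). With the block the count within 500 kb of LDB1 was 6 higher and 2 lower, against 26.6% called over all genes. Around LMO4, 2 genes were tested and neither passed, SELENOF having 0.11 ± 0.10 and HS2ST1 0.06 ± 0.18.

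The members followed different genes over the 6 libraries. Among 9757 other genes with a mean of at least 100, those with the highest Pearson correlation with LMO1 on the log2(normalized read count + 1) scale were ELF3-AS1 and GSEC (r = 0.996 each), RMI2 (0.994), AKR1C2 (0.993) and SECTM1 (0.992). All 5 had groups that did not overlap, which follows largely from likeness to a gene that itself separates the groups. SECTM1 came closest to LMO1 in size of difference, with 84.7 ± 10.7 in VIM-AS1 cells and 206.9 ± 56.4 in control cells. AKR1C2 has close paralogs among which reads may be split, so its value is uncertain, and ELF3-AS1 and GSEC are annotated as antisense genes whose reads may not be told apart from those of a gene on the other strand. LMO4 was followed most closely by PALB2 (r = 0.997), RFC1 (0.990), USP32 (0.989), MATCAP2 and TBC1D23 (0.986 each), and LDB1 by FSD1 (0.9996), ZSWIM8 (0.995), CHMP2A and RNF44 (0.994 each) and LRRC20 (0.993). These 6 points share the third-library shift, so that r describes these libraries only and has no p.

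The shift of the third libraries had opposite signs in the members. In the third library LMO4 was 0.45 log2 units above the other libraries in the VIM-AS1 group and 0.16 above in the control group. LDB1 was 0.37 below in the VIM-AS1 group and 0.46 below in the control group. For the 13175 genes whose mean reached 20, the median shift was -0.05 in the VIM-AS1 group and -0.11 in the control group. The longest annotated transcript has 43.9% GC for LMO4, 54.5% for LMO1 and 59.7% for LDB1, against a median of 49.3% over those genes, and the part of GC content in the shift was not tested.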

How the data were processed

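RNA was measured in 3 VIM-AS1 and 3 control libraries. Per the submitters' processing notes, fastp, HISAT2 with hg38 and featureCounts made the counts. The sources used here give no annotation, strand setting or tool versions. The values the authors deposited are signal, the reads of a gene over a size factor of its library (0.819 to 1.27), called normalized read counts in the text. In each library 100% of the 25969 values were whole reads within 0.01 read. All identifiers matched GENCODE 29 on GRCh38, from which positions and exon lengths (all annotated exons of a gene together) were taken.

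Since the values were normalized, the main test was limma 3.58.1 (R 4.3.3) with an intensity trend on log2(value + 1), a scale that understates changes of low genes, for 20927 genes with a mean of at least 1, two-sided, adjusted by Benjamini-Hochberg over all of them. A second limma fit held a term for the third libraries, and "rose" and "fell" mean an adjusted p under 0.05 in it. That term was taken from earlier knowledge of these libraries, no label names a batch, and its p-values may therefore be too small. Without the term limma called 3 genes higher and 2 lower, with it 2403 and 1662. On the recovered reads edgeR 4.0.16 called 2 and 2 without the term and 2391 and 1808 with it. The members and lists were chosen with earlier results of these data known. Same-numbered libraries deviated together (13175 genes whose mean reached 20, r = 0.32, 0.72 and 0.84 for numbers 1 to 3), so the numbers were treated as pairs in a fit with a replicate block. The labels give no reason for the pairing, and VIM-AS1 replicate 1 followed control replicate 2 more closely (r = 0.42). With the block 3315 genes were higher and 2256 lower. Named were the 6 members, up to 6 called and up to 6 other abundant genes of each list, and the 5 genes most like each abundant member; a few more were named after their values were seen. Alternatives were a pseudocount of 0.1, other filters and scalings, DESeq2 1.42.0 and each library left out. Intervals and floors cover counting error or the spread between libraries only. Some marker and circuit genes are not reported here.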

Additional observations from a re-analysis of the deposited data

How the results depend on the processing

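LMO1 was chosen by its decrease, and every VIM-AS1 library lay below every control library. Leaving out a library therefore could not reverse its direction, and the ranges are a description. The log2 difference ran from -1.84 to -1.41 with a library left out. It ran from -1.79 to -1.48 when the fit also held the third-library term. It was negative under the other alternatives too. LMO4 ran from -0.28 to -0.01 and LDB1 from -0.28 to 0.00 with a library left out. LDB1 came to 0.00 without control replicate 2, the library with its highest value (1373 normalized reads). Neither LMO4 nor LDB1 was called under any alternative. Of all genes, the fit without a term called 3 higher and 2 lower. No filter on low values gave 5 and 12, library size scaling 15 and 13, DESeq2 133 and 220, and the third-library term 2403 and 1662. The replicate block gave 3315 and 2256. With a library left out the counts ran from 2 to 10 higher and from 0 to 31 lower. With the third-library term they ran from 143 to 2825 higher and from 145 to 1668 lower, with 143 and 145 without VIM-AS1 replicate 3, 366 and 252 without control replicate 3, and 1468 higher without VIM-AS1 replicate 2. The settings within the fit with the term, other than leaving out a library and edgeR, were chosen after seeing the data. Of the complex partners 0 were called without a term and 0 with any library left out, 1 with the third-library term and 2 with the replicate block. With the term and a library left out that count ran from 0 to 2. The block changed no call of a member. Library size scaling moved the median log2 difference of all tested genes to -0.08, against -0.02 as deposited. Counts over all genes thus turn on the term, the block, the tool and the libraries kept.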

Other observations

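A pair of genes with like names are no members of the family, and were looked at after the values of the members were seen. LMO7, which codes for a larger protein with a LIM and a PDZ domain and is no LIM-only factor, averaged 736.5 ± 228.2 normalized reads in VIM-AS1 cells and 715.4 ± 253.3 in control cells (SD, n = 3 each) and did not pass (0.05 ± 0.11, limma with the third-library term, adjusted p = 0.78). LDB3, a PDZ and LIM protein of the muscle Z-disc and no relative of LDB1, had 34.8, 34.3 and 21.5 normalized reads in the VIM-AS1 libraries, against 42.2, 73.3 and 54.5 in the control libraries. Its groups did not overlap, and it fell by 0.88 on the log2 scale with the term (limma, adjusted p = 0.0383, against 0.31 without the term), a call that held in 1 of the 6 fits that leave out a library, the one without control replicate 1. LDB3 also lost it with no filter on low values (adjusted p = 0.0570) and with library size scaling (adjusted p = 0.0539), both in limma with the term. The fit with the term called 7.94% of all tested genes lower, and groups did not overlap for 19.8%.

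Around LMO2, a member with almost no reads, 8 genes within 500 kb were tested. With the third-library term 2 rose and 0 fell, where 11.5% of all tested genes rose and 7.94% fell. Without the term 0 were called. So few genes cannot be set apart from those shares. NAT10, an RNA acetyltransferase gene 213.3 kb away, had 2903 ± 325.7 normalized reads in VIM-AS1 cells and 1741 ± 213.7 in control cells (SD, n = 3 each). Its log2 difference of 0.74 ± 0.10 passed in limma with the term (adjusted p = 5.09e-05) and with each library left out in that fit. It did not pass in limma without the term (adjusted p = 0.16). CAPRIN1, an RNA-binding protein gene 159.4 kb away, had a log2 difference of 0.31 ± 0.10 (adjusted p = 0.0375), and its call held only without control replicate 1 among the fits that leave out a library, and was lost with library size scaling (limma, adjusted p = 0.122). The genes around LMO3 and LDB2, 2 tested for each, did not pass.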
